A study of Mus musculus with 4 samples.

Results

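A set of 10 genes for surface and secreted proteins that are shared by the endothelium of most vascular beds were examined in RNA of brain endothelial cells from newborn mice. They were chosen by name (Egfl7, Emcn, Cd93, Clec14a, Robo4, Ly6c1, Ly6a, Itm2a, Pltp and S1pr1), and all 10 were found among the 21578 genes of the deposited tables and among the 15909 genes that were tested. The cells came from C57BL/6 mice at P0, the day of birth. One group was Pd1fl/fl, whose Pd1 alleles carry loxP sites and are intact. The other was Pd1cKO-Tie2, in which a Tie2-driven Cre removes Pd1, the gene for the checkpoint receptor PD-1 (Pdcd1). Both groups held 2 libraries, and the floxed alleles are common to them. Tie2-driven Cre is known to recombine in blood lineage cells as well as in endothelium. The sequenced cells were purified by flow cytometry, and the sort that the study describes, of cells from cerebral cortex, used antibodies against CD31 and CD45. The number of animals behind a library and their sex are not given in the sources used here. The comparison asks how the level of each gene differed when Pd1 was deleted.

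An endothelial cell presents a coat of mucins, lectins and receptors to the blood and releases matrix and lipid-carrying proteins around itself. Egfl7 encodes a secreted matrix protein with EGF-like domains, and Pltp a secreted protein that moves phospholipid between lipoproteins. Emcn encodes endomucin, a sialomucin of the luminal surface, and Cd93 and Clec14a encode C-type lectin-like receptors of 1 family. Robo4 encodes the endothelial Roundabout receptor, and S1pr1 a G protein-coupled receptor for sphingosine-1-phosphate. Ly6c1 and Ly6a (Sca-1) encode small proteins held in the membrane by a lipid anchor, and Itm2a encodes a single-pass transmembrane protein. Several are also made outside the endothelium: Cd93 in myeloid cells, Ly6a in blood stem cells and some leukocytes, and S1pr1 in lymphocytes and astrocytes. The annotation terms deposited with the tables place 6 members at the plasma membrane, 5 on its external side and 2 in the extracellular space (Egfl7 and Pltp). They give 4 members the term angiogenesis (Egfl7, Emcn, Robo4 and S1pr1).

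The gene positions in the tables are those of GRCm38, and the positions of all 10 members equal GENCODE M21. Egfl7 lies at chr2:26580014-26593120 on the plus strand, Pltp at chr2:164839518-164857711 and Cd93 at chr2:148436640-148443563 on the minus strand. Emcn lies at chr3:137341067-137432185 on the plus strand and S1pr1 at chr3:115710433-115715072 on the minus strand. Robo4 lies at chr9:37401897-37415115 on the plus strand and Clec14a, a gene of 1 exon, at chr12:58264720-58269290 on the minus strand. Ly6a (chr15:74994877-74998031) and Ly6c1 (chr15:75044018-75048830) are neighbours on the minus strand with 45986 bases between them, and Itm2a is the X-linked member (chrX:107397099-107403376, minus strand). The miR-126 hairpin lies on the same strand within the exons of Egfl7 joined over 19 annotated transcripts, which need not all include it. Its mature strand is shown because it is a second product of that locus, with the seed (bases 2 to 8) in capitals; the miRNA itself was not measured here.
mmu-miR-126a-3p, chr2:26591402-26591423, plus strand: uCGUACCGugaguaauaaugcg
The sequences of RefSeq (GRCm38.p6) gave promoter windows for 7 of the 10 members, 10 windows in all. The windows run from 250 bases before to 50 bases after the start. The 250 bases before the start are shown for Emcn, Clec14a, Robo4 and Itm2a, members with 1 window whose exons overlap no other gene and share no stretch of 50 bases with another transcript. The capitals mark GGAA on either strand, the core of the sites of ETS factors, a family that is active in endothelium.
Emcn, chr3:137340828-137341077, plus strand: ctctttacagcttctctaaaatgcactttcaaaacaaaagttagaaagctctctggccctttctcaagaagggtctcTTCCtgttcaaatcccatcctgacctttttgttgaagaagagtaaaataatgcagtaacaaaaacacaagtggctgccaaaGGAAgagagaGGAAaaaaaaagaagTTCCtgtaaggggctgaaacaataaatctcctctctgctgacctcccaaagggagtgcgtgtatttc
Clec14a, chr12:58269259-58269508, minus strand: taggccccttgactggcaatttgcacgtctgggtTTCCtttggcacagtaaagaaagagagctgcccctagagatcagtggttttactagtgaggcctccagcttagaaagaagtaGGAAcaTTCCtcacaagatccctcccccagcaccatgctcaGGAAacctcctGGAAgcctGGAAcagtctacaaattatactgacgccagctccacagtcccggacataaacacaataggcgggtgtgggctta
Robo4, chr9:37401722-37401971, plus strand: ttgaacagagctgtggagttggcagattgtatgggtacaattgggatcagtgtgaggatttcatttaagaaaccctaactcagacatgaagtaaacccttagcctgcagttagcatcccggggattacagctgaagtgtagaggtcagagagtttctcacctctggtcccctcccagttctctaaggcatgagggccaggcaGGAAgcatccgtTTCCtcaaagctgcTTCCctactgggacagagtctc
Itm2a, chrX:107403361-107403610, minus strand: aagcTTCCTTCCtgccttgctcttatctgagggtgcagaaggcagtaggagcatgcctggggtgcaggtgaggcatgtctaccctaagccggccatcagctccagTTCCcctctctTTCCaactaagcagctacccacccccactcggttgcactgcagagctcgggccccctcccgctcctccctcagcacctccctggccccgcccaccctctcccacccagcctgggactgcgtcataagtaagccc
GGAA was found in 10 of 10 member windows of 300 bases, and in 96% of the 32851 windows of all genes. A member window held a median of 5 matches and a window of any gene a median of 3. The longer CCGGAA, which contains GGAA, was in 0 member windows and in 14.9% of all windows. CACCC, a core of KLF factor sites, was in 6 of 10 member windows and in 57.5% of all. AACAAT (SOX factors) was in the Emcn window alone, against 10.7% of all windows. The Itm2a window was the 1 member window with AGATAA, a site of the zinc finger factors of blood and endothelium, against 11.2% of all. TATAAA was in 2 member windows, of Pltp and Ly6c1, and in 13.6% of all. Each motif was searched on both strands, and a match describes the letters only.

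The libraries held between 13714374 and 24146115 counts. Where a library had no count for a gene, as many as 3 counts remain possible, equal to 0.124 to 0.219 CPM, the count scaled to the total of a library. Levels below are CPM scaled further by edgeR's TMM method. Pdcd1 itself had 32 counts in Pd1fl/fl library 1 and 0 in the 3 other libraries, so it does not tell Pd1fl/fl library 2 from the Pd1cKO-Tie2 libraries. Pd1fl/fl library 1 also stood apart in neutrophil and monocyte markers (983 CPM summed over 10 genes, against 69.8 to 134 in the others), and Ltf, Camp and Elane, chosen after their values were seen, had counts in that library alone. Pd1cKO-Tie2 library 1 stood apart in Xist, with 281 CPM against 27.7 in Pd1cKO-Tie2 library 2 and 0 in both Pd1fl/fl libraries. The endothelial label was checked against its markers: Cldn5, which encodes the claudin of brain endothelial tight junctions, had between 4774 and 7008 CPM and Pecam1 (CD31) between 410 and 576 CPM.

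In all 10 members, both libraries of Pd1cKO-Tie2 lay above both of Pd1fl/fl. This was so for 17.7% of all tested genes, and for 30.3% of the 2141 tested genes with a mean of at least 100 CPM, to which 9 members belong. The differences were small: the log2 fold changes ran from 0.21 (Emcn) to 0.61 (Ly6a) with a median of 0.34, which are folds of 1.16 to 1.52. The median of all tested genes was -0.004 and that of the genes at 100 CPM or more was 0.09, of which 13.3% had a log2 fold change at or above the member median. The 10 members together took 1.11% and 1.06% of the counts in the Pd1fl/fl libraries and 1.37% and 1.35% in the Pd1cKO-Tie2 libraries. Without Itm2a the members summed to 3149 and 2960.0 CPM in Pd1fl/fl and to 3723 and 3910.4 CPM in Pd1cKO-Tie2. In RNA of a whole cell population, a difference in the share of endothelial cells and a difference in RNA per cell cannot be told apart.

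**Figure D1:**
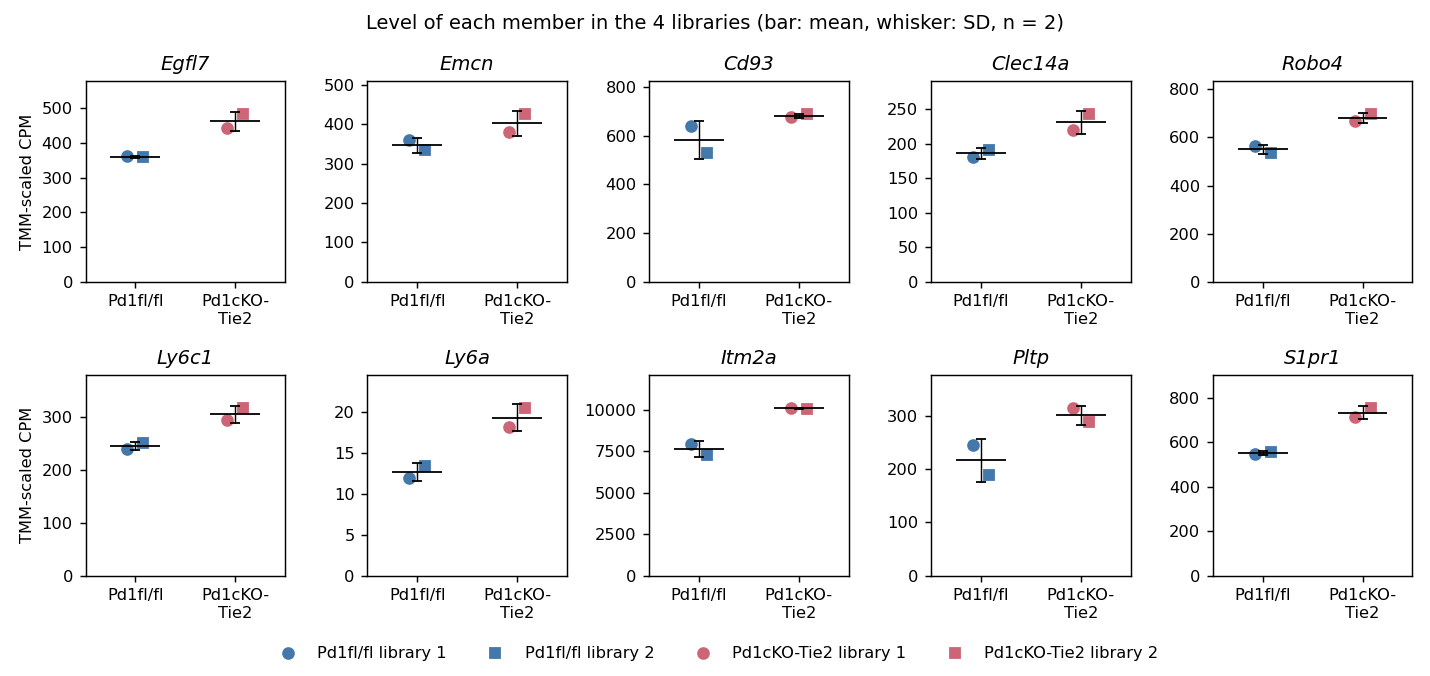
TMM-scaled CPM of each member (vertical axes, each from 0) in the 2 Pd1fl/fl libraries (blue) and the 2 Pd1cKO-Tie2 libraries (red), with the mean as a bar and the SD as a whisker (n = 2). In all 10 panels both red points lie above both blue points, and the groups are nearest in Cd93 (639 against 676 CPM) and Emcn (360 against 379 CPM).

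In edgeR, the main test, no member passed the study's criterion or an adjusted p under 0.05. With edgeR's quasi-likelihood test, 0 of 10 members met the criterion in the study's methods, a change of at least 2-fold with p of 0.05 or less, which 1.41% of tested genes met as higher in Pd1cKO-Tie2. At an adjusted p under 0.05, edgeR called 0 members and 0% of tested genes; limma-voom also called 0 genes. The smallest adjusted p of edgeR over all genes was 0.735, and 1016 tested genes had an unadjusted p under 0.05. An unadjusted p under 0.05 was reached by 5 members (Egfl7, Robo4, Itm2a, Pltp and S1pr1), against 2.84% of tested genes that reached it as higher. That number was lower in each fit with 1 library left out, where 1 genotype has a lone library. The median log2 fold change of the members was 0.37 without Pd1fl/fl library 1 and 0.35 without Pd1fl/fl library 2. Without Pd1cKO-Tie2 library 1 the median was 0.40, and without Pd1cKO-Tie2 library 2 it was 0.29. DESeq2 on the filtered genes called 1 member, Itm2a, and 0.27% of genes as higher. DESeq2 on every gene with a count called 0 members and 0.206% of genes as higher. A permutation test of 2 against 2 libraries cannot go below a two-sided p of 0.333 for a single gene. The labels do not say that the libraries came from separate animals, so the p-values measure the spread between these libraries only.

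The spread between libraries of 1 genotype was small for these genes. The median log2 difference between the 2 Pd1fl/fl libraries was 0.10 over the members and 0.20 over the genes at 100 CPM or more, and between the 2 Pd1cKO-Tie2 libraries 0.12 and 0.18. The member with the widest Pd1fl/fl pair was Pltp (0.38), followed by Cd93 (0.27). For 7 members (Egfl7, Clec14a, Robo4, Ly6c1, Ly6a, Itm2a and S1pr1) the smallest of the 4 differences between a Pd1cKO-Tie2 and a Pd1fl/fl library exceeded both within-genotype differences. In Emcn, Cd93 and Pltp it did not.

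Among the secreted proteins, Egfl7 (ENSMUSG00000026921) stood at 362 and 358 CPM in Pd1fl/fl and at 442 and 482 CPM in Pd1cKO-Tie2. The groups did not overlap, and the Pd1fl/fl pair differed by less than the Pd1cKO-Tie2 pair. Its log2 fold change was 0.36 (SE 0.13, edgeR adjusted p = 0.753). The exons of Egfl7 share 264 bases with Gm20532 on the same strand and 64 bases with Agpat2 on the other, and 5.33% of its 50-base stretches occur in other genes' transcripts. Its paralog Egfl8 had 24.4 and 20.5 CPM in Pd1fl/fl and 38.5 and 40.6 CPM in Pd1cKO-Tie2, a log2 difference of 0.82 (SE 0.29) that missed the 2-fold limit. Of the other relative, Egfl6, 2 libraries had no counts.

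Pltp (ENSMUSG00000017754) stood at 245 and 188 CPM in Pd1fl/fl and at 314 and 289 CPM in Pd1cKO-Tie2. The Pd1fl/fl libraries were far apart, and library 1 was the one nearer to the Pd1cKO-Tie2 libraries. edgeR gave a log2 fold change of 0.48 (SE 0.18, edgeR adjusted p = 0.753), 0.68 without Pd1fl/fl library 1 and 0.30 without Pd1fl/fl library 2. Pltp shares 495 exon bases with Ctsa on the other strand, 10.8% of its stretches, and the use of strand in counting is not given in the sources used here. The other genes of lipoprotein handling had a median log2 difference of -0.21 over 10 tested, with 4 higher, and 0 met the criterion. The most abundant per length were Apoe, the carrier of lipid between brain cells, at 1036, 1454, 773.5 and 1098 CPM (Pd1fl/fl, then Pd1cKO-Tie2), the HDL receptor Scarb1 at 455, 416, 572.5 and 460 CPM, and the oxysterol receptor Nr1h2 at 136, 150, 170 and 132 CPM. Of these, Scarb1 alone had both Pd1cKO-Tie2 libraries above both Pd1fl/fl libraries.

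Among the mucin and the lectins, Emcn (ENSMUSG00000054690) stood at 360 and 334 CPM in Pd1fl/fl and at 379 and 424 CPM in Pd1cKO-Tie2. The gap between the groups was narrower than either pair. The log2 fold change of 0.21 (SE 0.14, edgeR adjusted p = 0.953) was the smallest of the 10 with all libraries, and it was 0.13 without Pd1cKO-Tie2 library 2. Without Pd1fl/fl library 2, that of Cd93 (0.10) was smaller than that of Emcn (0.16). Of the 4 other sialomucins, 3 had both Pd1cKO-Tie2 libraries above both Pd1fl/fl libraries, as 17.7% of tested genes did, and 0 met the criterion. The 3 most abundant per length were Cd34, Cd164 and Podxl. Cd34, a ligand of selectins on many vessels, had 1914 and 1711 CPM in Pd1fl/fl and 1985 and 2213 CPM in Pd1cKO-Tie2, and Podxl, a podocalyxin of the lumen, 424 and 432.5 against 489 and 507 CPM. Cd164 overlapped (438 and 369 against 362 and 411 CPM).

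Cd93 (ENSMUSG00000027435) stood at 639 and 529 CPM in Pd1fl/fl and at 676 and 687 CPM in Pd1cKO-Tie2. Pd1fl/fl library 2 was low, and Pd1fl/fl library 1 was close to the Pd1cKO-Tie2 libraries. On the log2 scale the fold change was 0.22 (SE 0.14, edgeR adjusted p = 0.948), and 0.10 without Pd1fl/fl library 2. Clec14a (ENSMUSG00000045930) stood at 181 and 192 CPM in Pd1fl/fl and at 219.5 and 243 CPM in Pd1cKO-Tie2, with no overlap. Its log2 fold change was 0.31 (SE 0.16, edgeR adjusted p = 0.886).

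The related lectins (Thbd and Cd248) and the multimerins (Mmrn1 and Mmrn2) did not share the position of Cd93 and Clec14a. Of 4 tested, 1 had a higher mean in Pd1cKO-Tie2, 0 met the criterion, and the median log2 difference was -0.23. Mmrn2, the matrix ligand of both Cd93 and Clec14a, had 265 and 374 CPM in Pd1fl/fl and 352 and 375 CPM in Pd1cKO-Tie2, which overlapped. Cd248 (endosialin), a lectin of pericytes and fibroblasts, had 117 and 112 against 95.6 and 84.9 CPM, and Mmrn1 had 133 and 76.4 against 110 and 80.9 CPM. Thbd (thrombomodulin), 28451 bases from Cd93, had 46.2 and 64.5 against 53.4 and 35.2 CPM (log2 difference -0.32, SE 0.33); it was named once its values were known.

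Among the receptors, Robo4 (ENSMUSG00000032125) stood at 565 and 537 CPM in Pd1fl/fl and at 667 and 695 CPM in Pd1cKO-Tie2. Both pairs were tight and the groups did not overlap. The log2 fold change was 0.31 (SE 0.12, edgeR adjusted p = 0.764). Its partner Unc5b, a netrin receptor to which Robo4 binds across cells, had 70.8 and 67.1 CPM in Pd1fl/fl and 93.2 and 116 CPM in Pd1cKO-Tie2, a log2 difference of 0.60 (SE 0.21). The neuronal Roundabout receptors lay the other way, with Robo1 at 49.9 and 59.1 against 45.1 and 40.1 CPM and Robo2 at 28.4 and 46.7 against 26.2 and 21.02 CPM. Robo3, whose gene lies 553 bases from Robo4 and which was also chosen after its values were seen, was counted 0 and 12 times in Pd1fl/fl, then 1 and 0 times in Pd1cKO-Tie2. Of the 6 tested genes of this list, 2 were higher in Pd1cKO-Tie2 and 0 met the criterion.

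S1pr1 (ENSMUSG00000045092) stood at 546 and 558.5 CPM in Pd1fl/fl and at 712 and 753 CPM in Pd1cKO-Tie2. The Pd1fl/fl libraries differed by 0.03 on the log2 scale and the Pd1cKO-Tie2 libraries by 0.08, and the nearest libraries of the groups by 0.35. Its log2 fold change was 0.41 (SE 0.12, edgeR adjusted p = 0.735), at rank 311 of the tested genes by p. Of 14 other genes of the sphingosine-1-phosphate pathway tested, 8 were higher, 0 met the criterion, and the median log2 difference was 0.13. The most abundant per length was Mfsd2a, a lipid transporter of the blood-brain barrier that also exports sphingosine-1-phosphate, at 1095 and 1055 CPM in Pd1fl/fl and 1328 and 1285 CPM in Pd1cKO-Tie2. The next were the lipid phosphatase Plpp3, at 130 and 227 against 180.0 and 148 CPM, and Gnai2, the G protein subunit through which S1pr1 signals, at 191 and 156 against 185 and 201 CPM. Both overlapped. The exporter Spns2 had 36.1 and 32.8 against 31.2 and 32.8 CPM, and S1pr3 had 162 and 77.4 against 78.9 and 87.0 CPM; these 2 genes were chosen after their values were seen.

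Of the lipid-anchored proteins, Ly6c1 (ENSMUSG00000079018) stood at 239 and 250 CPM in Pd1fl/fl and at 293 and 316 CPM in Pd1cKO-Tie2. The groups did not overlap. edgeR gave a log2 fold change of 0.32 (SE 0.14, edgeR adjusted p = 0.844). Ly6a (ENSMUSG00000075602) was the least abundant member, with 172 and 191 counts in the Pd1fl/fl libraries against 435 and 280 in the Pd1cKO-Tie2 libraries, or 11.9 and 13.5 against 18.2 and 20.5 CPM. The lowest of these counts has an exact 95% Poisson interval of 147 to 200 counts (10.2 to 13.8 CPM), which covers counting error only. On the log2 scale the fold change was 0.61 (SE 0.37, edgeR adjusted p = 0.937), the largest of the 10 and the one with the largest SE.

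These 2 genes share stretches with other genes, and how reads from such stretches were counted was not examined. Of the 50-base stretches of Ly6c1, 32.8% occur in other genes, 21.5% in Ly6c2 and 11.1% in Ly6a, and of those of Ly6a 19% do, 15% in Ly6c1. Ly6c2, which marks monocytes and other leukocytes, was counted 62 and 2 times in Pd1fl/fl, then 6 and 29 times in Pd1cKO-Tie2, far below the 3449 to 7008 counts of Ly6c1. Of 10 tested genes of the Ly6 family, 9 were higher in Pd1cKO-Tie2 and 0 met the criterion. In 5 of the 10 the genotypes did not overlap, with Pd1cKO-Tie2 higher, as in 17.7% of all tested genes. The most abundant per length were Ly6e, at 391 and 335.5 against 393 and 498.5 CPM, Cd59a, which blocks the complement pore, at 150.0 and 113 against 174 and 171 CPM, and Ly6h at 33.2 and 49.5 against 52.7 and 44.2 CPM. Gpihbp1, the lipase carrier of capillary endothelium and chosen after its values were seen, was low (9.57 and 8.45 against 11.7 and 13.5 CPM).

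Itm2a (ENSMUSG00000031239) was the dominant transcript of the set. It stood at 7951 and 7289 CPM in Pd1fl/fl and at 10076 and 10054 CPM in Pd1cKO-Tie2, and it took between 0.755% and 0.997% of a library's counts. It was the fifth most abundant tested gene in both Pd1fl/fl libraries, and the second and the third in the Pd1cKO-Tie2 libraries. The log2 fold change was 0.40 (SE 0.08, edgeR adjusted p = 0.735), at rank 26 of the tested genes by p. The DESeq2 adjusted p was 0.0304 on the filtered genes and 0.0545 on every gene with a count, and the limma-voom adjusted p was 0.631. Of its 2 paralogs, Itm2b had 2191 and 1924 against 2223 and 2267 CPM (log2 difference 0.13, SE 0.11), and Itm2c had 230 and 304 against 231 and 266 CPM (log2 difference -0.10, SE 0.19).

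Itm2a lies on chromosome X, and sex-linked transcripts differed between the libraries. Xist was counted 0 times in either Pd1fl/fl library, against 6706 and 378 times in the Pd1cKO-Tie2 libraries. The Y-linked Ddx3y had 333 and 398 CPM in Pd1fl/fl and 52.3 and 339 CPM in Pd1cKO-Tie2. Kdm5d, also Y-linked, overlapped too (30.1 and 20.6 against 9.88 and 26.7 CPM). The Y-linked Uty (40.65 and 54.95 against 5.73 and 23.2 CPM) and Eif2s3y (66.9 and 76.3 against 19.2 and 56.8 CPM) were lower in both Pd1cKO-Tie2 libraries. These genes were chosen after their values were seen. Without Pd1cKO-Tie2 library 1, the log2 fold change of Itm2a was 0.41, and without Pd1cKO-Tie2 library 2 it was also 0.41. With either library left out, Xist was counted in Pd1cKO-Tie2 only, so these values cannot tell sex from genotype. The part of sex in the difference of Itm2a was not tested.

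The 26 other endothelial genes lay in the same direction as the members. Their median log2 difference was 0.33, 24 of 26 were higher in Pd1cKO-Tie2, and 0 met the criterion. In 22 of 26 the genotypes did not overlap, with Pd1cKO-Tie2 higher. This held for 17.7% of all tested genes and for 30.3% of those with a mean of at least 100 CPM. The members' range of log2 fold changes held 20 of the 26, with 5 below it (Mcam, Fli1, Adgrl4, Adgrf5 and Ecscr) and 1 above it (Erg, 0.67). The 3 most abundant per length were Cldn5 at 5516 and 4774 against 6562 and 7008 CPM (log2 difference 0.40, SE 0.10), the glucose transporter Slc2a1 at 3543 and 3624 against 4621 and 4509 CPM (0.35, SE 0.08), and the junction protein Esam at 1139 and 1025 against 1298 and 1318 CPM (0.27, SE 0.11).

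**Figure D2:**
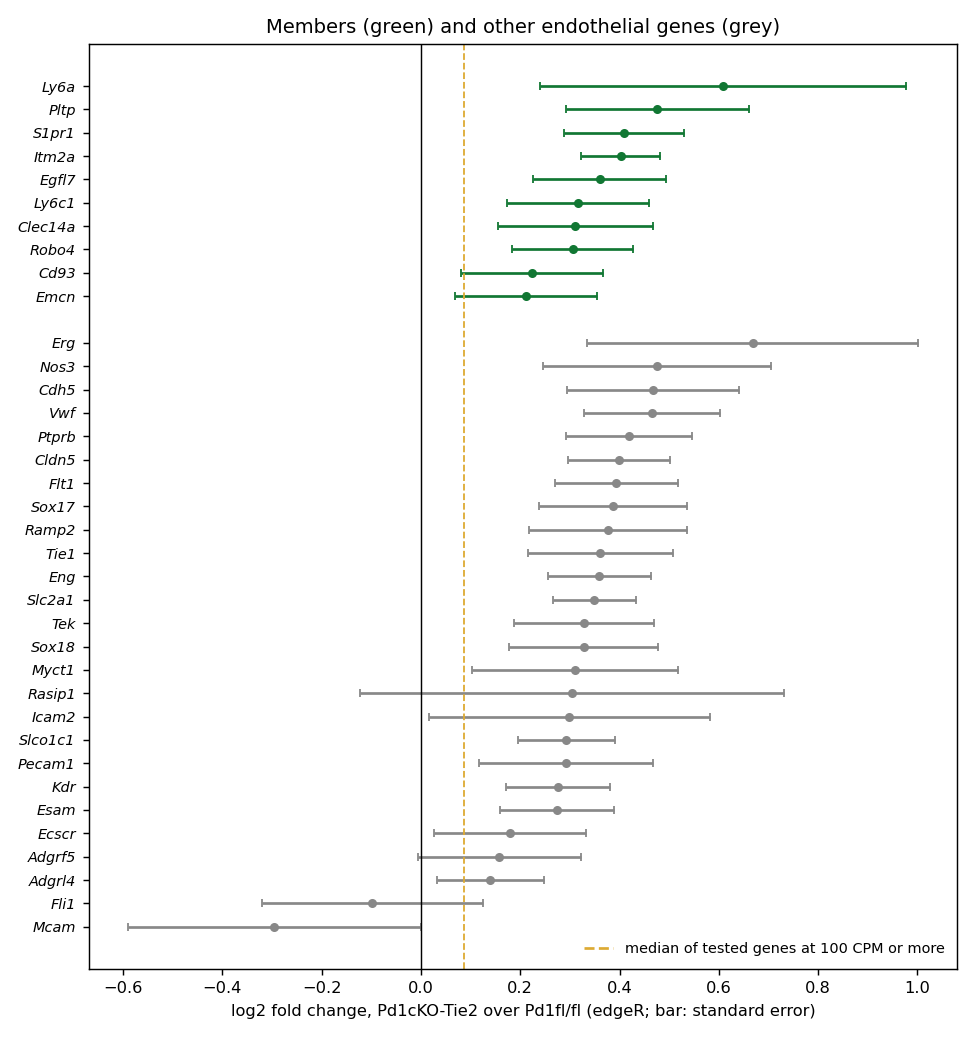
Log2 fold change of Pd1cKO-Tie2 over Pd1fl/fl from edgeR (horizontal axis; point, estimate; bar, SE) for the 10 members (green) and the 26 other endothelial genes (grey), with the median of tested genes at 100 CPM or more (0.09) as a dashed line. The members lie between 0.21 and 0.61 and the other endothelial genes between -0.29 and 0.67, and the green and grey points cover the same range except for the 5 grey points below 0.21 and Erg above 0.61.

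When each library was scaled by the counts on those 26 genes (300973 and 283050 in Pd1fl/fl, 595856 and 360114 in Pd1cKO-Tie2), the median log2 difference of the members was 0.01, and 5 of 10 remained positive. The counts were summed, so abundant genes weigh most. Cldn5 (79523 and 67773, then 156788 and 95673) and Slc2a1 (51079 and 51451, then 110418 and 61557) gave the most of them. Ly6a, Itm2a and S1pr1 had both Pd1cKO-Tie2 libraries above both Pd1fl/fl libraries, as 6.28% of tested genes did in this scaling. Emcn and Robo4 had both below, as 38.8% of tested genes did. For each 1000 counts on the other endothelial genes Itm2a was counted 381 and 366 times in Pd1fl/fl and, in Pd1cKO-Tie2, 404 and 381 times. The corresponding values of S1pr1 were 26.1 and 28.0 against 28.6 and 28.6, and those of Robo4 were 27.1 and 26.9 against 26.8 and 26.4. Ly6a had 0.572 and 0.675 against 0.730 and 0.777. In this scaling the log2 difference was 0.27 for Ly6a, 0.15 for Pltp, 0.08 for S1pr1, 0.07 for Itm2a and 0.03 for Egfl7. It turned negative for Emcn (-0.12), Cd93 (-0.10), Clec14a (-0.02), Robo4 (-0.02) and Ly6c1 (-0.01). This scaling shifts all genes alike, and the median of all tested genes moved to -0.34, so the changes of sign follow from the common shift.

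**Figure D3:**
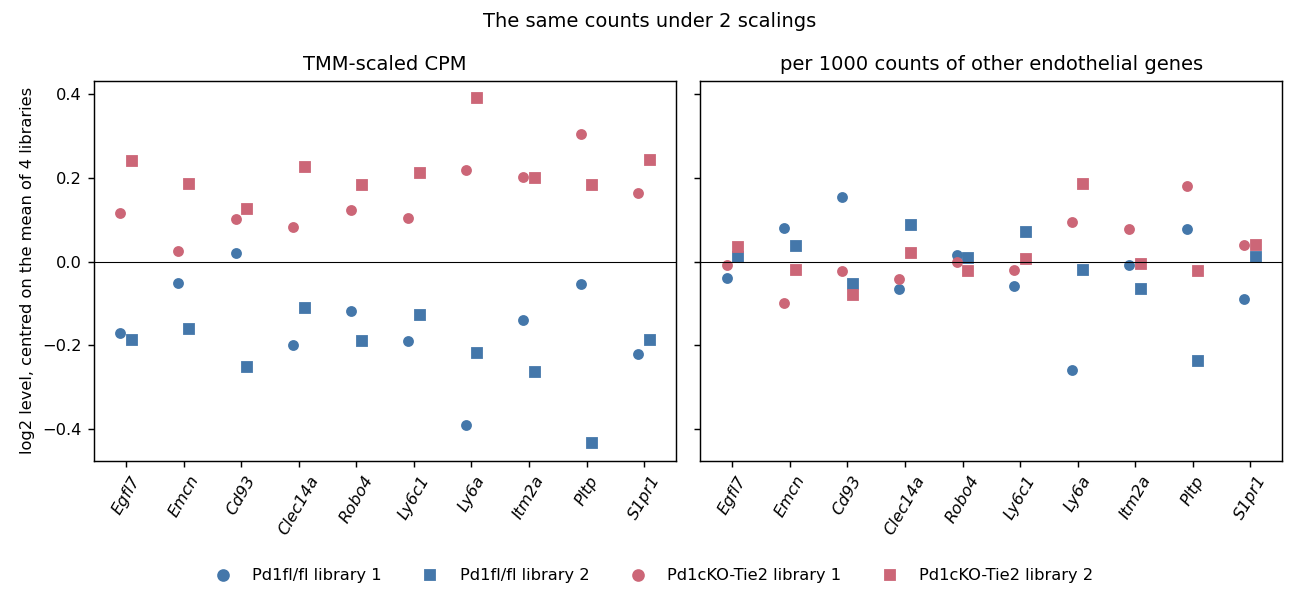
Log2 level of each member, centred on its mean over the 4 libraries (vertical axis), as TMM-scaled CPM (left) and per 1000 counts on the 26 other endothelial genes (right). On the left the red Pd1cKO-Tie2 points lie above the blue Pd1fl/fl points in 10 of 10 members, and on the right in 3 (Ly6a, Itm2a and S1pr1).

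Markers of other cell types moved with genotype beside the members. All 5 pan-leukocyte markers had both Pd1cKO-Tie2 libraries below both Pd1fl/fl libraries, as 18.1% of tested genes did, and their sum was 814 and 994 CPM in Pd1fl/fl and 505.5 and 606 CPM in Pd1cKO-Tie2. For radial glia and astrocytes, 7 of 10 markers lay so, with sums of 964 and 955 against 624 and 457 CPM. For microglia and macrophages, 7 of 10 did, with sums of 1900.2 and 2343 against 706 and 1652 CPM. The 2-fold criterion was met as lower by 2 radial glia markers (Fabp7 and Hes5), 1 microglia marker (Trem2), 1 pan-leukocyte marker (Spi1) and 2 neutrophil markers (S100a8 and Ngp), as by 2.61% of tested genes. It was met as higher by 1 lymphocyte marker, Cd8a, as by 1.41% of tested genes. Cd8a was counted 0 times in both Pd1fl/fl libraries and only 27 and 18 times in Pd1cKO-Tie2 (1.13 and 1.32 CPM). DESeq2 on every gene with a count called 2 radial glia markers (Fabp7 and Slc1a3), 1 pan-leukocyte marker (Laptm5) and 4 neutrophil markers (Ltf, Camp, S100a8 and S100a9) lower, as it did 0.465% of genes. The 5 named neutrophil markers rest on Pd1fl/fl library 1, and the markers named here were chosen after their values were seen. Pericyte and smooth muscle markers summed to 5598 and 3612 against 3716 and 3702 CPM, with 2 of 8 tested lying lower. Neuron markers summed to 826 and 1070 against 926 and 709 CPM, and erythroid markers to 646 and 557 against 575 and 1070 CPM. Lymphocyte markers summed to between 18.39 and 24.97 CPM in every library, lymphatic markers to between 92.1 and 165 CPM, fibroblast markers to between 59.6 and 144 CPM and oligodendrocyte lineage markers to between 91.4 and 182.5 CPM. The defining leukocyte marker Ptprc (CD45), against which the sort antibody is directed, was not at 0 in any library, with 86.4 and 139 against 54.6 and 67.9 CPM. The part of these cells in the members' differences was not tested. Cd93, Ly6a and S1pr1 are also made outside the endothelium, and which cells supplied their transcripts was not measured.

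**Figure D4:**
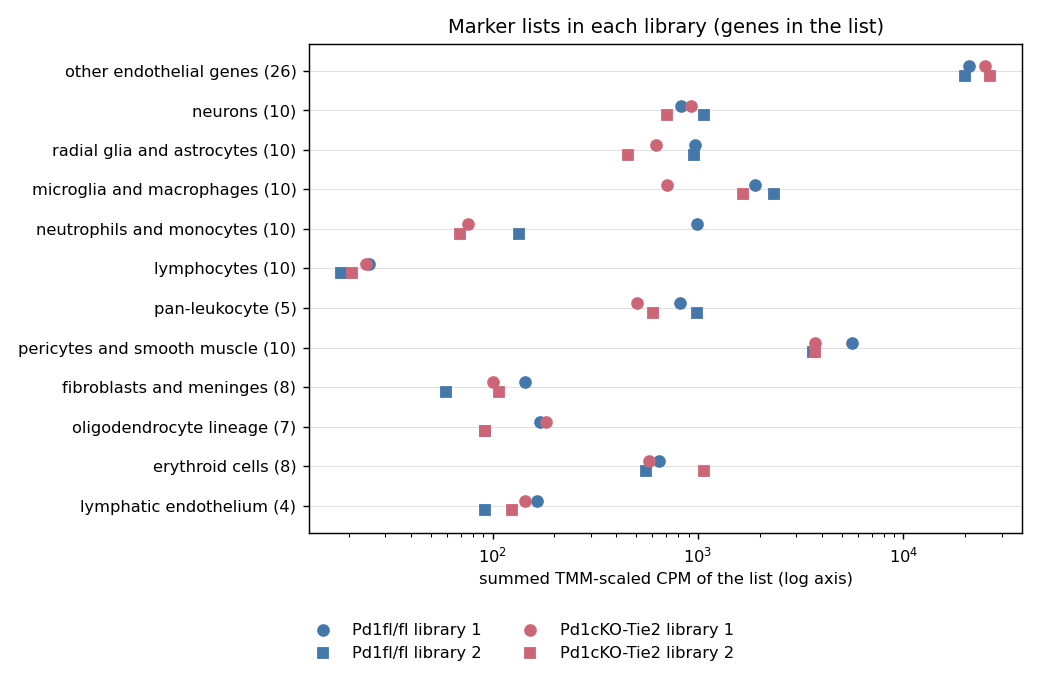
Summed TMM-scaled CPM of each marker list (log axis) in the 4 libraries, with the number of genes in brackets. The other endothelial genes sum to 20878 and 19939 CPM in Pd1fl/fl and to 24938 and 26377 CPM in Pd1cKO-Tie2, whereas the pan-leukocyte, radial glia and microglia lists are lower in both Pd1cKO-Tie2 libraries.

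The members' direction was the same without either library that stood apart. Without Pd1fl/fl library 1, the library with the granulocyte transcripts, the median log2 fold change of the members was 0.37. Without Pd1cKO-Tie2 library 1, the library with most Xist, it was 0.40. Xist was still counted in the remaining Pd1cKO-Tie2 library and in neither Pd1fl/fl library, so leaving out a library cannot tell sex from genotype.

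The levels of the members spanned a wide range per kilobase of exon. Itm2a stood at 5070.1 CPM per kb (mean of 4 libraries), followed by S1pr1 at 211 and Ly6c1 at 164. Robo4 (116), Egfl7 (115), Pltp (101), Cd93 (94.8), Emcn (69.2) and Clec14a (45.6) came next, and Ly6a was lowest at 13.3 CPM per kb. Over all 4 libraries, the ranges overlapped between S1pr1 and Ly6c1, Robo4 and Egfl7, Egfl7 and Pltp, and Pltp and Cd93. Library by library, S1pr1 was above Ly6c1 and Egfl7 above Pltp in 4 of 4, and these pairs did not overlap within either genotype. Robo4 was above Egfl7 in 3 of 4 libraries and overlapped it in Pd1cKO-Tie2, and Pltp was above Cd93 in 2 of 4 and overlapped it in Pd1fl/fl, so the latter 2 pairs did not differ beyond their spread. The ranges of Itm2a, Ly6c1, Cd93, Emcn and Clec14a did not overlap that of the next gene. The order rests on the length used: with the length of 1 annotated transcript in place of all exons, Emcn had 276 CPM per kb, Egfl7 296 and Ly6c1 325.5, and 7 members changed place, whereas Itm2a, Clec14a and Ly6a kept theirs.

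**Figure D5:**
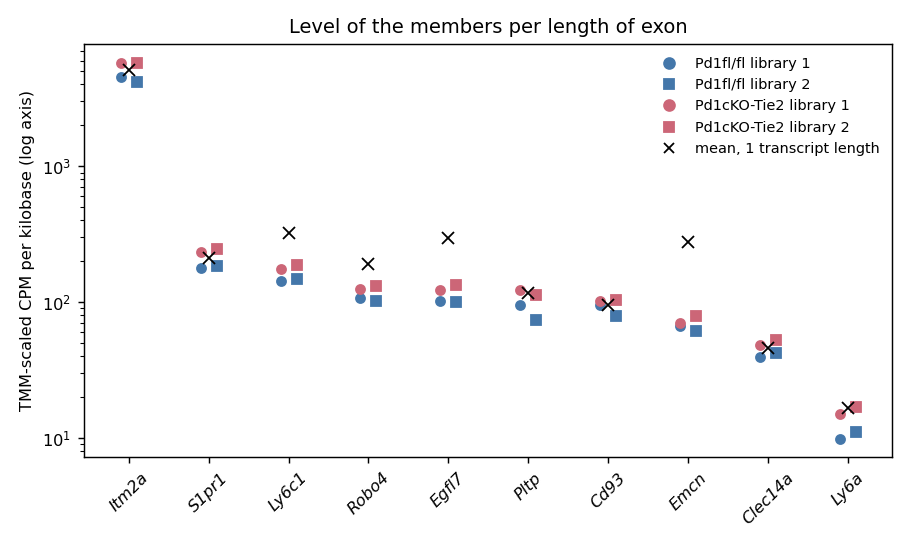
TMM-scaled CPM per kilobase of exon (log axis) for each member in the 4 libraries, ordered by the mean, with the mean per kilobase of 1 annotated transcript as a cross. Itm2a lies above 4000 CPM per kb in all 4 libraries and Ly6a below 20, and the crosses of Ly6c1, Egfl7, Robo4 and Emcn lie above their points.

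The genes most like the members over the 4 libraries were named by the root mean square difference between their centred log2 CPM and the mean centred profile of the members (-0.15 and -0.21 in Pd1fl/fl, 0.14 and 0.22 in Pd1cKO-Tie2). Among 9447 genes with a mean of at least 10 CPM, the nearest were Tsc22d1 (0.016), a transcription regulator, Gimap1 (0.018), a GTPase of the immune-associated family, Eng (0.018), the TGF-beta co-receptor endoglin, Pim3 (0.021), a kinase, and Crem (0.023), a cyclic AMP-responsive factor. Of the members, Egfl7 (0.024) and Robo4 (0.029) lay nearest to their mean profile, and Ly6a (0.152) and Pltp (0.146) farthest. The members enter that profile themselves. Set among the 9447 other genes, Egfl7 would rank 8, Robo4 14, Pltp 1096 and Ly6a 1204. Eng is 1 of the 26 other endothelial genes, and stood at 1208 and 1197 CPM in Pd1fl/fl and 1504 and 1579 CPM in Pd1cKO-Tie2. The 4 values behind each profile come from the same libraries.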

How the data were processed

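The data were RNA sequencing of 4 libraries, 2 per genotype, from brain endothelial cells of mice at P0. The authors deposited 4 tables, each with 1 Pd1cKO-Tie2 and 1 Pd1fl/fl library. Their count columns hold the number of reads that the authors assigned to each gene, not normalized. The normalized columns the authors deposited hold CPM by their values, counts scaled to the total of each library, and served only for the totals. The p-value columns and ratio (fold change) columns hold the authors' own results and were not used. The submitters' processing notes name Bowtie2 2.2.3, TopHat2 2.0.12, HTSeq 0.6.0 and mm9, although the deposited positions are those of GRCm38 (90% equal GENCODE M21). The annotation and strand setting are not given in the sources used here. The tables were joined by identifier. In all, 10 broken lines were skipped and 23 symbols turned into dates were restored. Genes absent from a table were given 0 counts, which omitted 0.0107% of a total or less. Library numbers are those of the table columns, and since no label carries the number of the second Pd1cKO-Tie2 library, it was mapped by genotype. Pd1fl/fl and Pd1cKO-Tie2 counts were compared with edgeR 4.0.16 in R 4.3.3 by its quasi-likelihood F test, after filterByExpr and TMM scaling, with no covariate and Benjamini-Hochberg adjustment over 15909 genes. Standard errors were derived from the log2 fold change divided by the square root of F.

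Alternatives were DESeq2 1.42.0, limma-voom (limma 3.58.1), RLE, upper quartile and total-count scaling, scaling by 26 other endothelial genes, no filter beyond 1 count, at least 10 counts in every library, and leaving out each library. On simulated counts, edgeR recovered 87.5% of 200 genes changed 4-fold and 0% of those changed 2-fold or 1.25-fold at an adjusted p under 0.05. The 4-fold run also gave 15 false calls. The members and all gene lists were chosen with earlier results of these data known. Named genes were the members, the 3 most abundant per length of each related list and of the other endothelial genes, genes of these lists past the criterion (0 were), genes that share 50-base stretches with a member, and the 5 most like the members; other genes were named as defining markers (Pecam1, Ptprc), as the outer values of a range, or after their values were seen, as stated beside them.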

Additional observations from a re-analysis of the deposited data

How the results depend on the processing

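All 10 members kept a higher mean in Pd1cKO-Tie2 with RLE, upper quartile and total-count scaling, both filters, DESeq2, limma-voom and each library left out. Total counts alone gave a median log2 fold change of 0.275 and 2 members at an unadjusted p under 0.05. Scaling by the other endothelial genes gave a median of 0.007 and 0 members at an unadjusted p under 0.05. In that scaling 3 members had both Pd1cKO-Tie2 libraries above both Pd1fl/fl libraries, as 6.28% of tested genes did. It turned Emcn (-0.119), Cd93 (-0.104), Clec14a (-0.022), Robo4 (-0.023) and Ly6c1 (-0.015) negative. DESeq2 on the filtered genes called 1 member, Itm2a (log2 fold change 0.400). Leaving out 1 library gave medians from 0.291 to 0.400, and fewer members at an unadjusted p under 0.05 than with all libraries. With the length of 1 transcript, 7 members changed place in the order of levels. Under scaling by the other endothelial genes, the lower median and the changes of sign follow from a shift common to all genes. The cause of the other changes was not tested. Leaving out a library leaves fewer libraries and a lone library that is assumed to vary like the others.

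The number of genes that met the 2-fold criterion among the members was 0 under every setting run. With 2 libraries per genotype, changes of the size seen in the members were not recovered by edgeR in simulated counts, so an adjusted p above 0.05 does not show that the members did not differ. The genes changed in the simulation were drawn from genes of many levels and not from the members, so their recovery is not that of the members. No paired analysis was possible because the groups share only 1 replicate number in the labels.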

Other observations

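Some genes next to the members on the chromosome belong to no list of the report. Notch1, 63350 bases from Egfl7, had 112 and 90.9 CPM in Pd1fl/fl and 117 and 86.2 CPM in Pd1cKO-Tie2, a log2 difference of 0.00 (SE 0.24). Hepacam, a glial adhesion gene 15321 bases from Robo4, had 47.2 and 49.9 against 32.7 and 35.5 CPM, a log2 difference of -0.51 (SE 0.25), the opposite direction to Robo4. Sec23a, 689092 bases from Clec14a, had 142 and 121 against 159 and 156 CPM, a log2 difference of 0.26 (SE 0.17). Pcif1, 21592 bases from Pltp, had 72.8 and 80.8 against 70.8 and 73.4 CPM. These neighbours were chosen after their values were seen, and none had an edgeR adjusted p under 0.05.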
